A study of Mus musculus with 38 samples.

Results

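The response of omental tumors to chemotherapy was compared between 2 transplantable mouse models of high grade serous ovarian cancer, 60577 and HGS2, 7 days after the last dose, the time point named TP2. The quantity described is an interaction: for each gene, the log2 change from control to treated tumors in 60577 minus the same change in HGS2. It rested on 14 of the 38 samples in the series, namely 3 control and 4 treated 60577 tumors and 4 control and 3 treated HGS2 tumors, chosen by their labels and not by any measured value. A positive difference is written as higher and a negative difference as lower, and both refer to 60577 relative to HGS2. Treated mice were injected intraperitoneally each week, for 3 doses, with paclitaxel (10 mg/kg) plus carboplatin (20 mg/kg), and control mice received the vehicle. Carboplatin crosslinks DNA and paclitaxel stabilizes microtubules. All mice were immunocompetent females that had been injected intraperitoneally with the cells at 8 to 9 weeks of age. The 60577 cells were grown in FVB mice and treated from day 21 after injection, and the HGS2 cells were grown in C57BL/6J mice and treated from day 49. The mutations that the lines carry were not given in the sources used here. Cell line, mouse strain and age of the tumor therefore changed together, and their parts in any difference cannot be told apart. Each tumor came from a different mouse and was sequenced as whole tissue, so fewer cells of a type and less RNA per cell cannot be told apart.

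A dividing cell copies its DNA with the licensing and replication proteins and then separates the copies with the spindle, and the genes of both steps are switched on together in cycling cells. Cells short of oxygen raise glucose transport and glycolysis through hypoxia-inducible factors. The omentum is a fatty tissue with clusters of lymphocytes, so B cells, T cells, adipocytes, fibroblasts and myeloid cells lie beside the malignant cells in these tumors.

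Of 16241 genes tested, 1120 (6.90%) were called for the interaction by edgeR's quasi-likelihood test, which required a Benjamini-Hochberg adjusted p below 0.05 and a log2 difference beyond 1 in either direction. Of these, 522 (3.21%) were higher and 598 (3.68%) were lower in the 60577 response than in the HGS2 response. The genes that were lower included most of the genes tested of DNA replication, of mitosis and of hypoxia and glycolysis. They also included 9 of 17 tested genes of a list for neutrophils and immature myeloid cells. Those that were higher included a group of B cell genes. The median difference over all genes tested was 0.05. This fit did not pair tumors. With the replicate number as a block shared by both models the interaction called 679 genes, 277 higher and 402 lower. With a replicate block within each model it called 618, 256 higher and 362 lower. The 60577 response on its own was called for 3477 genes (21.4%), of which 2142 rose and 1335 fell. In HGS2 no gene was called by edgeR, although 2214 had an unadjusted p below 0.05, the smallest adjusted p was 0.0986 and DESeq2 called 201.

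The called genes moved mainly in 60577. All 522 higher genes had a positive 60577 response, with a median of 1.87, and their median HGS2 response was -0.14. All 598 lower genes had a negative 60577 response, with a median of -1.60, and their median HGS2 response was 0. The HGS2 response lay within 0.5 log2 units of no change for 353 (67.6%) of the higher genes and for 505 (84.4%) of the lower genes, against 76.7% of all genes tested. Of the 1120 genes, 1007 were also called in 60577. As no gene was called in HGS2, none could be called with opposite signs in both models. By sign alone, the responses were opposite for 324 of the higher and 300 of the lower genes, against 5420 of 16241 genes tested. Treated and control tumors did not overlap in 60577 for 1074 of the called genes, beside 50.5% of all genes tested, and in HGS2 for 101, beside 13.1% of all genes tested. These counts rest on the same tumors as the calls.

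**Figure D1:**
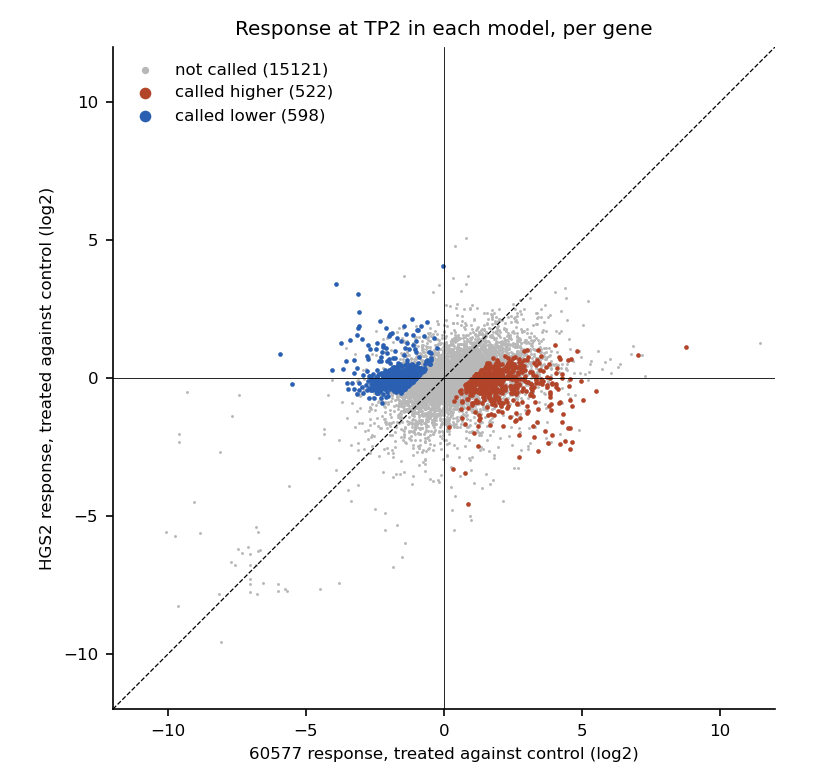
Log2 response to treatment in HGS2 (vertical axis) against that in 60577 (horizontal axis) for each gene tested, with genes called for the interaction colored by direction. The 522 higher genes lie at positive 60577 responses and the 598 lower genes at negative 60577 responses, with HGS2 medians of -0.14 and 0.

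The 14 libraries held 19456373 to 39153730 estimated counts. The epithelial markers Epcam and Krt7 were found in every group, although Epcam was at 31.8 to 56.4 CPM in 60577 controls and at 0.335 to 12 CPM in HGS2 controls. The control tumors were not uniform. HGS2 control 2 held 13.9% of its counts in pancreatic acinar genes and 22.6% in small noncoding RNA. Among 60577 tumors, control 2 stood apart in glycolytic genes and in those of neutrophils and immature myeloid cells. The small noncoding share was 3.90% to 15.2% in 60577 controls and 10.6% to 27.8% in 60577 treated tumors, whereas it was 5.44% to 22.6% in HGS2 controls and 4.38% to 12.1% in HGS2 treated tumors. Both ends of the range were higher after treatment in 60577. In HGS2 the value of 22.6% was that of control 2 alone, and the other controls were at 5.44% to 6.48%. With that share as a covariate 267 genes were called, 121 higher and 146 lower. Without 60577 control 2 the count was 364, without both 60577 control 2 and HGS2 control 2 it was 181, and 324 genes kept their call whichever of the 14 tumors was left out.

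Genes for DNA replication were lower as a group. Of 32 tested, 27 were called lower and none higher, with a median difference of -1.72 against 0.05 over all genes, and all 32 differences were negative. Their median response was -1.70 in 60577 and 0.04 in HGS2. The summed level of the list was 1970, 2060 and 2170 CPM in the 60577 controls and 612, 728, 541 and 551 CPM in the 60577 treated tumors. It was 1100, 880, 1460 and 1010 CPM in the HGS2 controls and 1060, 1120 and 1050 CPM in the HGS2 treated tumors. CPM is a gene's count scaled to a fixed library size, here after TMM normalization. The 60577 groups lay apart and the HGS2 treated tumors lay inside the range of their controls.

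Mcm6 (ENSMUSG00000026355, chr1:128331590-128359664 in GRCm38) encodes a subunit of the helicase that opens replication origins. It was at 171, 187 and 206 CPM in the 60577 controls and at 29.3, 41.5, 26.6 and 23.1 CPM in the 60577 treated tumors. Among HGS2 tumors it was at 80.0, 62.8, 112 and 70.8 CPM in the controls and at 76.0, 83.4 and 70.5 CPM in the treated tumors. The 60577 groups did not overlap and the HGS2 groups did. The log2 difference was -2.55 ± 0.41 (SE), with an edgeR adjusted p of 0.00281. The licensing factors Cdt1 and Cdc6 had differences of -2.23 ± 0.35 and -2.49 ± 0.44, with edgeR adjusted p of 0.00281 and 0.00374. Dut, the enzyme that clears dUTP, had a difference of -1.73 ± 0.30 (adjusted p 0.00344).

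The upstream sequence of Mcm6 is shown because the replication genes moved together and E2F factors are known to bind upstream of many of them. Among called replication genes it was the one of smallest p whose window held the motif, so a match was certain. The sequences printed for other lists were chosen in the same way. The 250 bases before its start, chr1:128359706-128359955 on the minus strand of GRCm38.p6 from RefSeq, read 5′ to 3′ with matches to the E2F motif TTTNGCGC on either strand in capitals.
Mcm6: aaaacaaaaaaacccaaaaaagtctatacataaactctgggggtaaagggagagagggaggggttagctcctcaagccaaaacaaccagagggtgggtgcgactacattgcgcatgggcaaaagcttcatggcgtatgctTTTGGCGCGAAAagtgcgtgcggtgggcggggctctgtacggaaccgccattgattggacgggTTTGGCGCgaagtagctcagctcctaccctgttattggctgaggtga
In Mcm6 the first run of capitals holds overlapping matches on the 2 strands. Of 23 called replication genes with a RefSeq promoter, 5 (21.7%) held the motif, as did 5 of 27 tested replication genes (18.5%), compared with 1.91% of 11257 tested genes and 1.15% of 27025 promoters. Among genes called lower the share was 4.65% of 430, and among those called higher 0.88% of 341. A match describes letters in this window and not a bound site.

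Genes for mitosis and the spindle differed in the same direction. Of 30 tested, 28 were called lower and none higher, with a median difference of -2.07, a median response of -2.20 in 60577 and a median response of -0.05 in HGS2. The summed level was 1430 to 1580 CPM in 60577 controls and 306 to 486 CPM in 60577 treated tumors. In HGS2 it was 943 to 1770 CPM in controls and 1200 to 1300 CPM in treated tumors.

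Kif11 (ENSMUSG00000012443, chr19:37376403-37421859), a kinesin that pushes the spindle poles apart, was at 69.1, 74.7 and 72.8 CPM in the 60577 controls and at 12.7, 17.2, 12.1 and 11.3 CPM in the 60577 treated tumors. The corresponding HGS2 levels were 55.4, 38.1, 74.8 and 52.3 CPM in controls and 45.1, 59.4 and 53.4 CPM in treated tumors. The groups were apart in 60577 and overlapped in HGS2. The difference was -2.37 ± 0.49, with an edgeR adjusted p of 0.00664. Prc1, which bundles microtubules at division, had a difference of -2.35 ± 0.50 (adjusted p 0.00722). Birc5, a subunit of the chromosomal passenger complex, had a difference of -2.25 ± 0.43 (adjusted p 0.00437), and the spindle checkpoint gene Mad2l1 differed by -1.84 ± 0.38 (adjusted p 0.00664). Mki67, the common proliferation marker, was at 240 to 261 CPM in 60577 controls and 74.0 to 110 CPM in 60577 treated tumors, against 160 to 362 and 223 to 299 CPM in HGS2. Its difference of -1.50 ± 0.45 had an adjusted p of 0.0367, which became 0.0543 with the replicate block.

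The Kif11 upstream sequence, chr19:37376132-37376381 on the plus strand, is shown with the reverse complements of the CCAAT box (CCAAT) and of the cell cycle homology region (TTTGAA) in capitals, since this pair is known from promoters of mitotic genes.
Kif11: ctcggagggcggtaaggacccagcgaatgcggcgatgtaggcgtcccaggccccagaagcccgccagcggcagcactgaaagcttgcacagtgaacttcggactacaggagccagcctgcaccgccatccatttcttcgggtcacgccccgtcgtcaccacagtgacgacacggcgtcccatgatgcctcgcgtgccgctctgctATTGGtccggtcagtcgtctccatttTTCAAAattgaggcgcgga
Searching both strands, CCAAT was found in 16 of 23 called mitotic genes with a promoter (69.6%), in 18 of 25 tested mitotic genes (72.0%) and in 36.2% of all tested genes. TTTGAA was found in 8 of 23 (34.8%), in 8 of 25 (32.0%) and in 10.9%. The motifs do not overlap each other in Kif11.

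All replication and mitosis genes tested were at 1 CPM or more in both monocultures of at least 1 of the lines. Over all genes called lower that share was 566 of 598 (94.6%), over those called higher 300 of 522 (57.5%), and over all genes tested 78.5%. Without 60577 control 2, 20 replication and 15 mitosis genes were called, and without both doubted controls 13 and 4. With the small noncoding share as a covariate 12 replication and 5 mitosis genes were called, with medians of -1.37 and -1.67.

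Hypoxia and glycolysis genes were lower in 16 of 24 tested, and none was higher. The median difference was -1.93, with a median response of -2.11 in 60577 and -0.18 in HGS2. The summed level was 7850, 19600 and 6920 CPM in the 60577 controls and 2770, 2960, 1930 and 2220 CPM in the 60577 treated tumors. In HGS2 it was 5660, 4730, 8620 and 7640 CPM in controls and 5830, 5320 and 6290 CPM in treated tumors. The second 60577 control was far above the other two, although all 3 controls were above every treated tumor.

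Pgk1 (ENSMUSG00000062070, chrX:106187100-106203699), a glycolytic kinase, was at 409, 1200 and 353 CPM in the 60577 controls and at 91.5, 97.9, 48.9 and 68.3 CPM in the treated tumors. Among HGS2 tumors it was at 283, 190, 541 and 447 CPM in controls and at 302, 325 and 337 CPM in treated tumors. The 60577 groups were separate and the HGS2 groups overlapped. The difference was -2.90 ± 0.55 (edgeR adjusted p 0.00437), and the adjusted p was 0.0269 without 60577 control 2. The glycolytic enzymes Eno1 and Pkm had differences of -2.73 ± 0.47 and -1.97 ± 0.41. Slc16a3, the lactate exporter, had a difference of -2.16 ± 0.44. Slc2a1, the glucose transporter of most cells, was at 178 ± 177 CPM (SD, n = 3) in 60577 controls and 30.0 ± 2.97 CPM (SD, n = 4) in treated tumors, against 78.9 ± 40.2 CPM (SD, n = 4) and 88.0 ± 9.40 CPM (SD, n = 3) in HGS2. Without 60577 control 2, 5 genes of the list were called and the median difference was -1.16. Those that kept their call whichever tumor was left out were Aldoa, Eno1, Pgk1, Pkm and Slc16a3. With the small noncoding covariate 6 were called.

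The Pgk1 upstream sequence, chrX:106186850-106187099 on the plus strand, is shown for the core of the hypoxia response element, ACGTG, with matches on either strand in capitals.
Pgk1: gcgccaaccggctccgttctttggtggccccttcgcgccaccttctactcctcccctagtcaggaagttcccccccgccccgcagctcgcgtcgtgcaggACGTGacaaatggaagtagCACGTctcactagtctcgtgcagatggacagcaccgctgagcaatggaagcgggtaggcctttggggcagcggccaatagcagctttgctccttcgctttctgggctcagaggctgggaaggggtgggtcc
ACGTG was found in 8 of 15 called members with a promoter (53.3%), in 13 of 22 tested members (59.1%) and in 21.2% of all tested genes. The E-box CACGTG contains the same letters, so these matches are not particular to hypoxia-inducible factors.

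Neutrophil and immature myeloid genes were called lower in 9 of 17 tested and higher in none, with a median difference of -3.04. The median response was -1.99 in 60577 and 1.28 in HGS2, where no gene was called. The defining marker Ly6g and the granule genes Ngp, Camp and Ltf were below the level needed for testing. The summed level was 218, 970 and 115 CPM in 60577 controls and 103, 99.8, 70.3 and 92.3 CPM in treated tumors. In HGS2 it was 79.0, 165, 1460 and 312 CPM in controls and 617, 705 and 1190 CPM in treated tumors. The highest value within each model was that of 60577 control 2 and of HGS2 control 3, and the groups overlapped in HGS2 but not in 60577.

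Cxcl5 (ENSMUSG00000029371, chr5:90759360-90761624), a chemokine that attracts neutrophils, had the most negative difference among the named genes. It was at 7.15, 35.9 and 3.59 CPM in the 60577 controls and at 2.05, 2.23, 1.82 and 1.00 CPM in the treated tumors. The corresponding HGS2 levels were 1.16, 2.17, 0.403 and 5.76 CPM in controls and 12.3, 20.1 and 26.0 CPM in treated tumors. The groups were apart in both models and in opposite directions. The difference was -6.16 ± 1.03 with an edgeR adjusted p of 0.00281, while the HGS2 response alone, 3.03, had an adjusted p of 0.136. Lcn2, an iron-binding protein of granules and inflamed epithelium, likewise went from 9.38 to 35.1 CPM in 60577 controls to 1.33 to 4.02 CPM in treated tumors, and from 0.671 to 3.71 CPM to 4.65 to 10.8 CPM in HGS2. Its difference was -4.42 ± 0.96 (adjusted p 0.00824). Cxcl5 and Lcn2 kept their calls whichever tumor was left out. In the monocultures of the lines Cxcl5 was at 0.612 to 2.04 CPM and Lcn2 at 0.636 to 9.33 CPM, so neither is particular to myeloid cells.

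Arg1 and Nos2, which compete for arginine in myeloid cells, were lower by the interaction but leaned on a single library. Arg1 was at 135, 645 and 51.5 CPM in 60577 controls and 15.1, 25.2, 16.3 and 25.7 CPM in treated tumors, against 13.3, 38.5, 91.0 and 35.3 CPM and 106, 33.1 and 180 CPM in HGS2. The groups were apart in 60577 and overlapped in HGS2. The difference was -5.01 ± 1.20 (edgeR adjusted p 0.0127), and the adjusted p without 60577 control 2 was 0.0901. For Nos2, at 72.0 CPM in 60577 control 2 and at 5.94 and 4.00 CPM in the other controls, the difference of -4.72 ± 1.01 (adjusted p 0.00732) had an adjusted p of 0.102 without that tumor. In the list as a whole 2 genes were called without 60577 control 2, where the median was -1.74, 11 without HGS2 control 3, where it was -4.38, 5 with the replicate block and 2 with the small noncoding covariate. Fcgr4, an activating Fc receptor of myeloid cells and no member of the list, differed by -3.49 ± 0.63 (adjusted p 0.00392) and was called whichever tumor was left out.

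The chemokine Cxcl1 was at 19 ± 16 CPM (SD, n = 3) and 4.82 ± 1.00 CPM (SD, n = 4) in 60577 control and treated tumors, and at 8.65 ± 4.06 CPM (SD, n = 4) and 13.9 ± 3.60 CPM (SD, n = 3) in HGS2. Its difference was -2.67 ± 0.69 (edgeR adjusted p 0.0192). Its upstream sequence, chr5:90890995-90891244 on the plus strand, is shown with the kappaB motif in capitals, where matches on the 2 strands overlap, because NF-kappaB is a known regulator of this chemokine.
Cxcl1: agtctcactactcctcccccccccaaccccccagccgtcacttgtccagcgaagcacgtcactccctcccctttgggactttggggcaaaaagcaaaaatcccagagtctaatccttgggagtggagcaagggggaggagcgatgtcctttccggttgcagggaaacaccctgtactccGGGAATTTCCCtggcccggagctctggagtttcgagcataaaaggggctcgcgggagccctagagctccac
The motif was found in 2 of 6 called genes of the neutrophil and immature myeloid list with a promoter (33.3%), in 4 of 13 tested ones (30.8%) and in 1.23% of all tested genes.

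Inflammatory cytokine genes were called lower in 4 of 16 and higher in none, beside 3.68% and 3.21% of all genes tested. The median difference of the list was -1.46. The called members included Il1b (-3.32 ± 0.88, edgeR adjusted p 0.0212), its antagonist Il1rn (-2.56 ± 0.71, adjusted p 0.0262) and the chemokine Ccl4 (-2.96 ± 0.96, adjusted p 0.0494). Il1b was at 17.9, 20.1 and 6.76 CPM in 60577 controls and 6.28, 4.89, 7.09 and 3.86 CPM in treated tumors, and at 2.94, 1.71, 9.84 and 12.2 CPM and 18.1, 14.3 and 41.4 CPM in HGS2. The 60577 groups overlapped for Il1b, and the HGS2 treated tumors were all above their controls. With the replicate block 1 gene was called, since Il1rn had an adjusted p of 0.0521, Ptgs2 0.0587 and Ccl4 0.0690, and without 60577 control 2 none was. The acute phase gene Saa3 had a difference of -3.96 ± 1.17 (adjusted p 0.0335), with adjusted p of 0.0617 under the block. Tnfaip6, a hyaluronan-binding protein induced in inflammation, differed by -3.59 ± 0.84 (adjusted p 0.0116) and had an adjusted p of 0.107 without 60577 control 2.

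**Figure D2:**
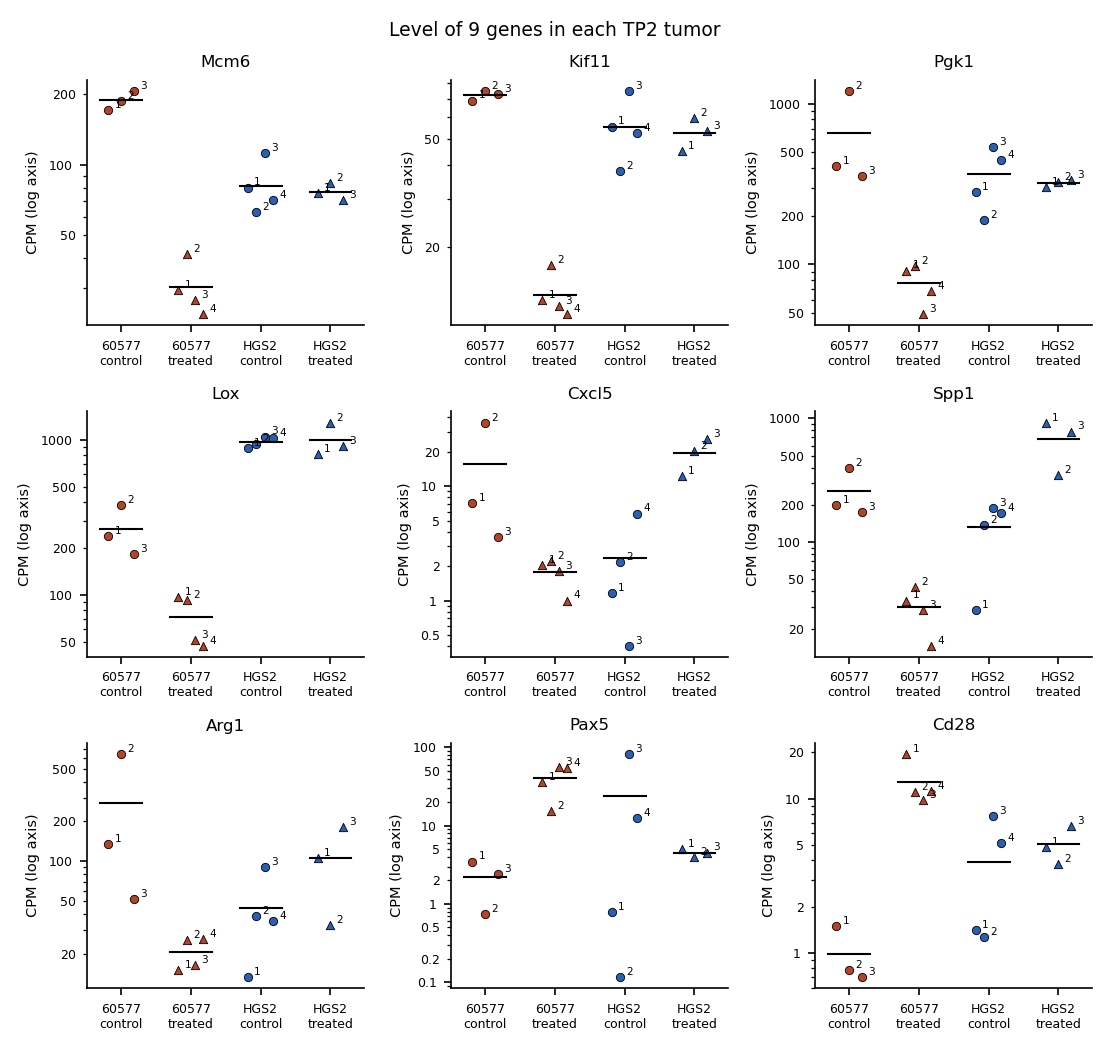
CPM of 9 named genes in each of the 14 tumors (logarithmic vertical axis), with controls as circles, treated tumors as triangles, replicate numbers beside the points and black lines at group means. Mcm6, Kif11 and Pgk1 separate the 60577 groups and overlap in HGS2, whereas Cxcl5 and Spp1 move in opposite directions in the 2 models.

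Spp1 (ENSMUSG00000029304, chr5:104435118-104441050), the matricellular protein osteopontin made by macrophages and tumor cells, also moved in opposite directions. It was at 201, 396 and 176 CPM in the 60577 controls and at 33.8, 43.6, 28.5 and 14.6 CPM in the treated tumors. In HGS2 it was at 28.5, 138, 187 and 172 CPM in controls and at 922, 348 and 781 CPM in treated tumors. Neither pair of groups overlapped. The difference was -5.48 ± 1.32 (edgeR adjusted p 0.0134), and the HGS2 response of 2.38 alone had an adjusted p of 0.262.

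Among 28 fibrillar collagens and processing enzymes, 5 were called lower and none higher, beside 3.68% lower and 3.21% higher over all genes tested. All 5 were enzymes that modify collagen: the lysyl hydroxylase Plod1, the crosslinking lysyl oxidase Lox, and the prolyl hydroxylase subunits P4ha1, P4ha2 and P4hb. The list median was 0.05, equal to that of all genes. Plod1 was at 147, 258 and 150 CPM in 60577 controls and 69.2, 82.7, 56.3 and 62.2 CPM in treated tumors, and at 137, 114, 139 and 154 CPM and 115, 222 and 116 CPM in HGS2. The groups were apart in 60577 and overlapped in HGS2. Its difference was -1.60 ± 0.30 (edgeR adjusted p 0.00437), and it alone of the 5 kept its call whichever tumor was left out. Lox was at 239, 378 and 183 CPM in 60577 controls and 97.7, 93.4, 51.6 and 47.2 CPM in treated tumors, and at 887, 943, 1050 and 1020 CPM and 806, 1290 and 911 CPM in HGS2. These groups too were apart in 60577 and overlapped in HGS2. The difference for Lox was -1.92 ± 0.51 (adjusted p 0.0206), with adjusted p of 0.0887 without 60577 control 2. With the replicate block Plod1 and Lox were still called and the other 3 were not, with adjusted p of 0.0543 for P4ha2 and 0.0635 for P4hb.

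Col1a1, the main chain of fibrillar collagen, was at 3410, 2560 and 2120 CPM in 60577 controls and 2130, 3850, 2940 and 3130 CPM in treated tumors, and ranged from 11300 to 31300 and from 16800 to 27600 CPM in HGS2. Its difference was 0.12, with a 95% interval of -1.29 to 1.53 (edgeR adjusted p 0.924), so differences of either sign inside that interval remain compatible with the data. The large proteoglycan Vcan had a difference of -0.27, with an interval of -1.31 to 0.78. Of 29 matrix glycoproteins, Spp1 and the fibronectin gene Fn1 were called lower, beside 3.68% of all genes tested. Fn1 differed by -1.39 ± 0.43 (adjusted p 0.0419), with adjusted p of 0.179 without 60577 control 2.

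Among 27 matrix proteases and inhibitors, 3 were called lower, Timp1 and the aggrecanase Adamts4 among them, and none was higher, with a list median of -0.79. Over all genes tested 3.68% were called lower. Timp1, an inhibitor of matrix metalloproteinases, was at 89.1, 244 and 40.4 CPM in the 60577 controls and at 32.2, 37.9, 16.9 and 20.1 CPM in the treated tumors. Among HGS2 tumors it was at 88.1, 47.8, 176 and 152 CPM in controls and at 259, 214 and 329 CPM in treated tumors. Neither pair of groups overlapped, and the directions were opposite. The difference was -3.42 ± 0.77 (edgeR adjusted p 0.00964), while the HGS2 response of 1.20 alone had an adjusted p of 0.329. Without 60577 control 2 the difference had an adjusted p of 0.0630.

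Of 23 basement membrane genes, Nid2 (nidogen) and Lama2 (a laminin chain) were called higher and none lower, beside 3.21% of all genes tested called higher. Nid2 was at 39.5, 12.8 and 21.3 CPM in 60577 controls and 71.1, 58.0, 28.8 and 81.0 CPM in treated tumors, and at 220, 349, 70.8 and 109 CPM and 68.6, 85.7 and 39.1 CPM in HGS2. The groups overlapped in both models. Its difference was 2.82 ± 0.76 (edgeR adjusted p 0.0228), with adjusted p of 0.0820 without 60577 control 2, 0.0509 without HGS2 control 2 and 0.0600 without HGS2 treated 3, and that of Lama2 was 3.86 ± 1.06 (adjusted p 0.0255, and 0.0540 with the block). In the TGF-beta list, Inhba, a subunit of activin, was lower and Ltbp4, which binds latent TGF-beta, was higher among 24 tested. Their adjusted p were 0.0340 and 0.0459, rising to 0.0621 and 0.0850 with the block. Without 60577 control 2 that of Inhba was 0.535.

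B cell genes were called higher in 11 of 20 tested and lower in none. The median difference was 4.66, with a median response of 3.19 in 60577 and -1.58 in HGS2. The summed level was 150, 64.0 and 114 CPM in 60577 controls and 578, 325, 639 and 686 CPM in treated tumors. In HGS2 it was 161, 119, 1050 and 331 CPM in controls and 300, 328 and 322 CPM in treated tumors. The 60577 groups lay apart, and HGS2 control 3 was far above all other HGS2 tumors.

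Pax5 (ENSMUSG00000014030, chr4:44524757-44710487), the transcription factor that fixes B cell identity, was at 3.48, 0.747 and 2.43 CPM in 60577 controls and at 36.5, 15.3, 55.6 and 54.8 CPM in treated tumors. The corresponding HGS2 levels were 0.782, 0.116, 81.9 and 12.6 CPM in controls and 5.07, 3.98 and 4.53 CPM in treated tumors. The HGS2 controls spanned both sides of the treated tumors. The difference was 6.59 ± 1.99 (edgeR adjusted p 0.0361), with adjusted p of 0.111 without 60577 control 2, 0.104 without HGS2 control 3 and 0.0867 with the block. Cd79a and Cd79b, the signaling chains of the B cell receptor, had differences of 5.43 ± 1.66 (adjusted p 0.0390) and 4.55 ± 1.29 (adjusted p 0.0288), which became 0.0859 and 0.0649 with the block. Other genes of B cells were Siglecg, an inhibitory lectin (5.04 ± 1.23, adjusted p 0.0144), and the kinase Blk (6.67 ± 1.82, adjusted p 0.0244, and 0.0599 with the block).

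The B cell calls depended on a few libraries. None of the 11 was called without 60577 control 2, 1 without HGS2 control 3, 1 with the replicate block and none with the small noncoding covariate, and limma-voom called 2. With each HGS2 treated tumor left out 1 to 3 were called, 5 without 60577 control 3 and 4 without 60577 treated 3 or treated 4. The median was 3.01 without HGS2 control 3, 3.34 with limma-voom, 4.37 with the block and 4.86 with the covariate. The octamer ATGCAAAT, a motif of B cell promoters, was found in 0 of 9 called members with a promoter, in 1 of 15 tested members (6.67%) and in 1.28% of all tested genes, and nothing can be read from counts this small.

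Most T cell genes tested rose in 60577, and few were called higher for the interaction, beside 3.21% of all genes tested. Of 25 genes of the T cell receptor complex and lineage, edgeR called 19 up in 60577 and 1, Cd28, for the interaction, where all 25 differences were positive and the median was 2.16. DESeq2 called 7 higher for the interaction, limma-voom none and edgeR without 60577 control 1 called 4, at a median of 3.26. The summed level was 121, 49.2 and 75.8 CPM in 60577 controls and 553, 362, 385 and 451 CPM in treated tumors, and 92.6, 55.7, 296 and 207 CPM and 261, 216 and 321 CPM in HGS2. Cd28, the costimulatory receptor, was at 1.51, 0.778 and 0.701 CPM in 60577 controls and 19.5, 11.1, 9.80 and 11.3 CPM in treated tumors, and at 1.42, 1.28, 7.78 and 5.16 CPM and 4.88, 3.78 and 6.64 CPM in HGS2. The groups were apart in 60577 and overlapped in HGS2. The difference was 3.30 ± 0.84 (edgeR adjusted p 0.0174), with adjusted p of 0.0610 without 60577 control 2. Cd3e and Cd8a had differences of 1.78 (95% interval -0.46 to 4.03) and 0.54 (interval -2.49 to 3.58), and neither was called. By edgeR none of 17 cytotoxic genes was called, with a median of 1.54, while 2 had an unadjusted p below 0.05 and DESeq2 called 1. Without 60577 control 1 edgeR called 2, at a median of 2.69, and without HGS2 control 3 the median was 0.89. Of 20 regulatory and checkpoint genes 1 was called, the inhibitory receptor Btla (4.84 ± 1.26, adjusted p 0.0196, and 0.0721 without 60577 control 2). Btla is also made by B cells.

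Other lymphoid lists are given beside all genes tested, of which 3.21% were called higher and 3.68% lower. Of 15 lymphoid chemokine and lymphotoxin genes, Il7 (a lymphocyte survival cytokine) and Cr2 (a complement receptor of B cells and follicular dendritic cells) were higher, and with the replicate block neither was, at adjusted p of 0.0707 and 0.0789. Of 20 plasma cell genes, 2 immunoglobulin constant genes, Ighd and Iglc3, were higher and Sdc1, which is also made by epithelial cells, was lower. None of these 3 was called with the block. In MHC class II presentation 1 of 15 was called (H2-Oa, higher, adjusted p 0.0487, and 0.0969 with the block), and in MHC class I none of 21, with a median of -0.60, 5 genes at an unadjusted p below 0.05, 1 called lower by DESeq2 and 2 called lower by edgeR without 60577 treated 1. By edgeR none of 33 interferon-stimulated genes was called, 1 had an unadjusted p below 0.05 and DESeq2 called 1 lower, and without 60577 treated 2 edgeR called 2 lower. Their median response was 1.34 in 60577 and 1.63 in HGS2.

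**Figure D3:**
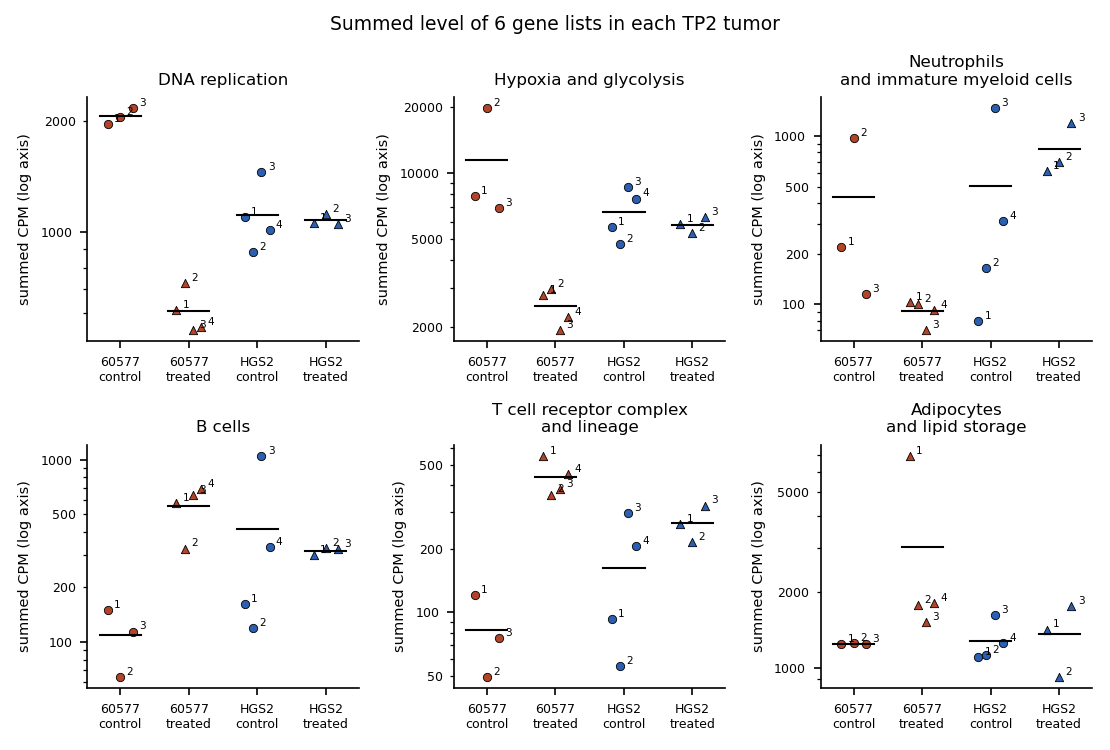
Summed CPM of 6 gene lists in each of the 14 tumors (logarithmic vertical axis), with controls as circles, treated tumors as triangles and black lines at group means. The DNA replication sum is lower in all 60577 treated tumors than in their controls and lies within the control range in HGS2. Separate controls stand out for hypoxia (60577 control 2) and for the neutrophil and immature myeloid list and B cells (HGS2 control 3).

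The gene with the smallest p was Zfp300 (ENSMUSG00000031079, chrX:21079174-21089527), a zinc finger gene. It was at 0.0984, 0.0934 and 0.165 CPM in 60577 controls and at 2.48, 1.97, 1.77 and 3.09 CPM in treated tumors. In HGS2 it was at 2.09, 0.775, 1.53 and 1.63 CPM in controls and at 1.93, 1.39 and 1.64 CPM in treated tumors. The 60577 controls were below all other tumors. The difference was 4.13 ± 0.54, with an edgeR adjusted p of 0.000596. Fyco1, an adaptor that moves autophagosomes, was at 36.7, 27.5 and 30.5 CPM in 60577 controls and 98.6, 78.9, 92.2 and 104 CPM in treated tumors, and stayed between 68.1 and 87.2 CPM in all HGS2 tumors. Its difference was 1.44 ± 0.22 (adjusted p 0.00281). Others of small p were Ankrd12 (1.48 ± 0.24) and the endoplasmic reticulum glucosyltransferase Uggt2 (1.79 ± 0.28), both higher, and the meiotic synapsis gene Syce2 (-2.80 ± 0.46) and the prostaglandin reductase Ptgr1 (-1.77 ± 0.28), both lower, each at adjusted p of 0.00281. Among the largest positive differences, the lipid transporter gene Abca6 and the chondroitin sulfotransferase gene Chst3 differed by 4.43 ± 0.98 and 5.58 ± 1.31. All genes of this paragraph kept their calls whichever of the 14 tumors was left out.

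Of 24 Trp53 target genes, 1 was higher and 3 were lower, with a median of 0.17. Over all genes tested 3.21% were called higher and 3.68% lower. The higher gene was Eda2r, a death receptor, at 1.64, 1.15 and 0.907 CPM in 60577 controls and 27.8, 22.5, 11.5 and 27.1 CPM in treated tumors, and at 1.53, 3.41, 2.74 and 1.06 CPM and 7.09, 1.12 and 2.76 CPM in HGS2. The groups were apart in 60577 and overlapped in HGS2. Its difference was 3.42 ± 0.84 (edgeR adjusted p 0.0151). Ddit4 (an inhibitor of mTOR signaling that hypoxia also raises), Plk2 and Gtse1 (a gene of dividing cells) were lower, by -1.94, -1.14 and -2.12. Without 60577 control 2 the adjusted p of these 4 genes lay between 0.0502 and 0.0578. Trp53 itself differed by 0.66, with a 95% interval of -0.24 to 1.55.

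Markers of the other cell types follow, beside 3.21% of all genes tested called higher and 3.68% called lower. By edgeR none of 28 adipocyte genes was called for the interaction, although 20 were called up in 60577, 19 had an unadjusted p below 0.05 for the interaction and DESeq2 called 11 higher. The median difference was 2.95, and 1.72 without 60577 treated 1. Adipoq, the adipocyte hormone, was at 149 CPM in 60577 treated 1 and at 7.78 to 25.4 CPM in the other treated tumors, and its difference of 5.91 had an adjusted p of 0.0753. Of 18 epithelial genes tested, Lcn2 alone was called, and the median response of the list was -1.86 in 60577 and -1.55 in HGS2. The epithelial markers Epcam and Krt7 differed by -1.94 (95% interval -4.46 to 0.57) and 1.01 (interval -0.99 to 3.01). In monoculture Epcam was at 3.14 and 4.71 CPM in the 60577 line but at 0 and 0.159 CPM in the HGS2 line. Its level is therefore no measure of malignant cells in HGS2 tumors. Of 23 fibroblast genes, Prrx1, a mesenchymal transcription factor, was higher (1.05 ± 0.32, edgeR adjusted p 0.0364, and 0.0860 with the block) and the membrane glycoprotein Pdpn lower (-1.37 ± 0.38, adjusted p 0.0264). The adjusted p of Pdpn was 0.0741 without 60577 control 2 and 0.0571 to 0.0700 without 60577 treated 3 or 4 or HGS2 treated 1 or 3. Spp1 was called among 29 macrophage genes, the complement component C7 among 23 complement genes and the smooth muscle myosin Myh11 among 6 muscle genes, although C7 and Myh11 had adjusted p of 0.0727 and 0.0513 with the block. edgeR called none among 23 endothelial genes, 15 mesothelial genes, 29 respiratory chain genes, 23 pancreatic acinar genes, 5 erythroid genes and 16 small noncoding and mitochondrial RNAs, of which 4, 2, 12, 0, 0 and 1 had an unadjusted p below 0.05. Of these, DESeq2 called 1 endothelial gene higher, the replicate block 1 mesothelial gene lower, and edgeR 1 endothelial gene higher without 60577 control 1 and 5 respiratory chain genes lower without 60577 treated 1. All 29 respiratory chain differences were negative, with a median of -0.51. The most negative was -0.98 with all tumors, so no member could pass the log2 limit of 1 there. The endothelial marker Pecam1 differed by 0.89, with a 95% interval of -0.63 to 2.41.

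**Figure D4:**
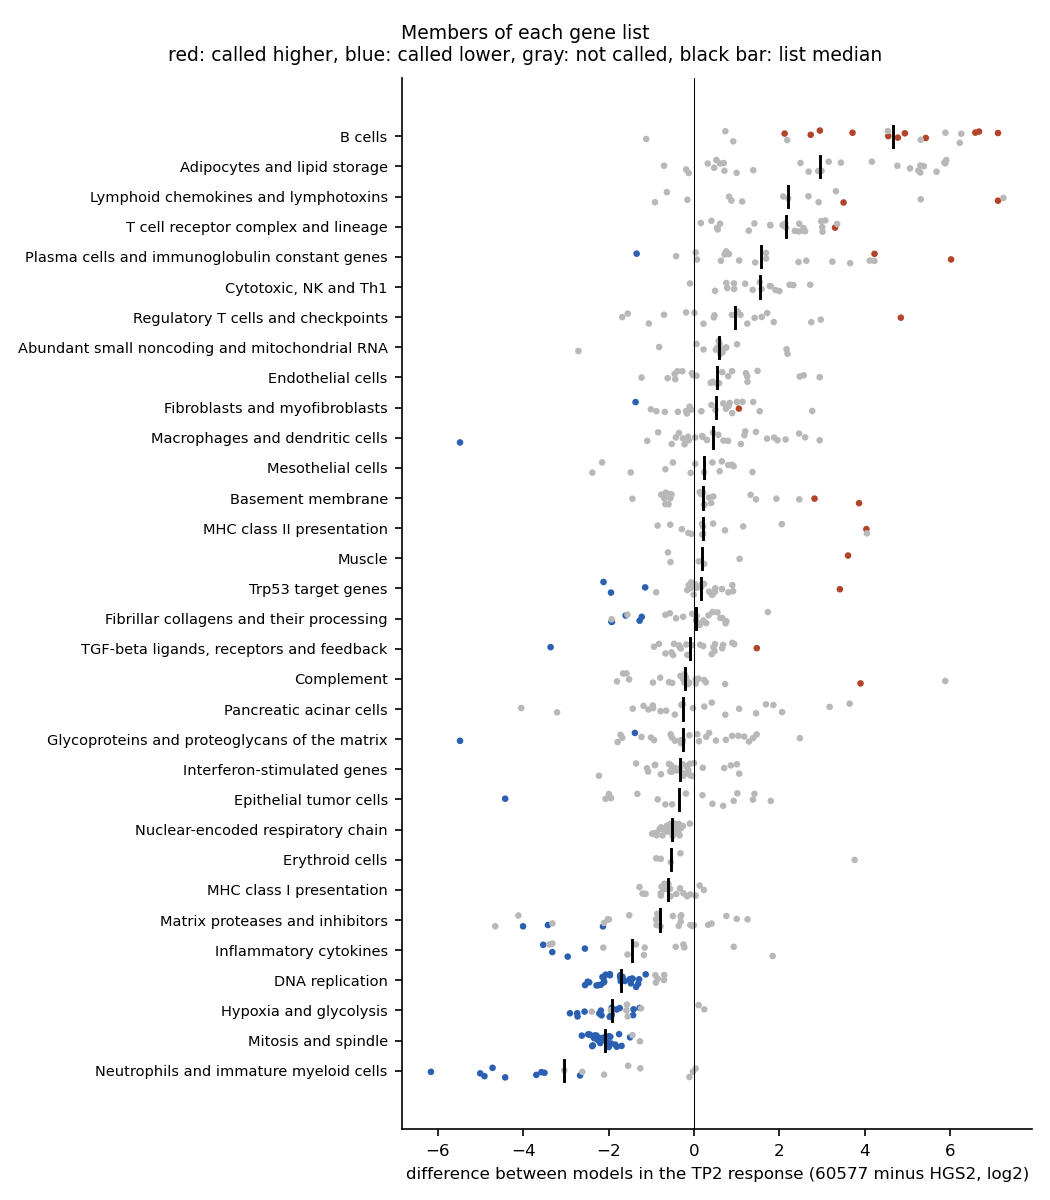
Log2 difference between the 60577 and HGS2 responses for each tested member of the 32 gene lists, 1 line per list, with called members colored. DNA replication (27 called), mitosis (28), hypoxia (16) and neutrophil and immature myeloid genes (9) called for the interaction lie below 0, and called B cell genes (11) above 0.

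The number of genes called moved with the tumors included. When the tumors were dropped singly it ran from 364 without 60577 control 2 to 1477 without 60577 treated 1, and was 646 without HGS2 treated 1, 703 without HGS2 treated 3, 690 without 60577 treated 3 and 629 without 60577 treated 4. Of the 324 genes that were called in all 14 of these fits, 138 were higher and 186 lower. They included 19 of the 27 replication genes and 15 of the 28 mitosis genes, but none of the 11 B cell genes.

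**Figure D5:**
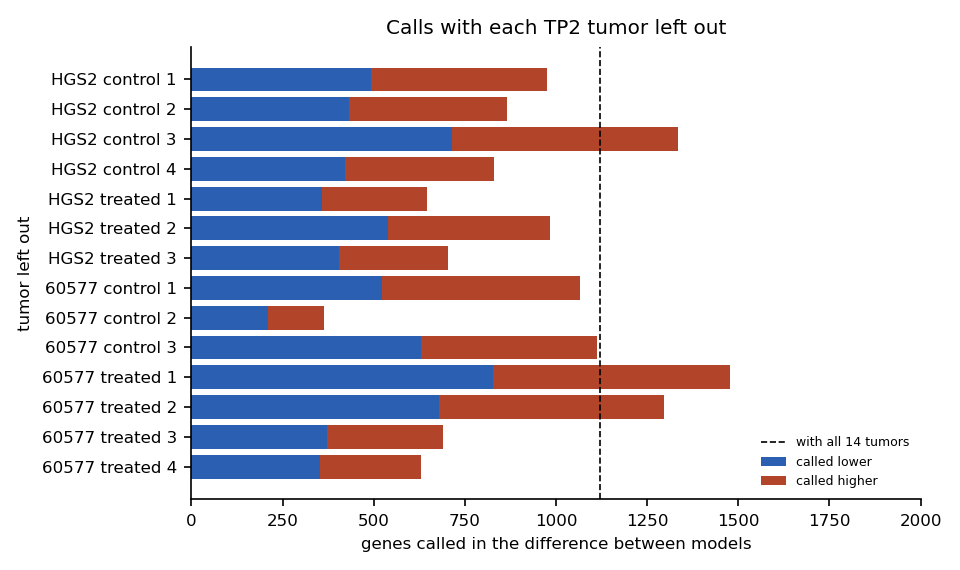
Number of genes called for the interaction, higher and lower, when each of the 14 tumors was left out in turn, beside the count with all tumors. Bars start at 0, and the lowest, 364, is that without 60577 control 2.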

How the data were processed

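Gene-level RNA abundance was measured in 34 tumors and 4 monocultures of the cell lines. After depletion of ribosomal RNA, the authors made paired 150-base reads that keep strand, trimmed them with Trim Galore 0.6.5, aligned them to GRCm38 with STAR 2.7.0f and quantified genes with RSEM, and deposited the expected counts without normalization. Reads of FVB mice were thus mapped to a C57BL/6J genome. No column lacked a sample.

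Expected counts were rounded and genes kept at 1 CPM or more in at least 25% of tumors. One quasi-likelihood model of 10 group means (edgeR 4.0.16, R 4.3.3, TMM factors) was fitted to 33 tumors, leaving out 1 HGS2 tumor of the third time point that the study's tables leave out. The interaction contrast was called at Benjamini-Hochberg adjusted p below 0.05 and absolute log2 difference above 1. Errors of differences are SE from the test statistic. Lists are described by counts and medians. Levels are CPM, so they are not compared between genes.

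The members and the 32 lists were chosen with earlier results of these data known. Named genes were fixed by rule: the 12 largest differences in each direction among called coding genes with a mean log2 CPM of at least 2, the next 10 by p, the 4 smallest p in each list, and 15 fixed genes. Some genes that the rule names are not reported here. Slc2a1 and Cxcl1 were named from their lists after their values were seen, and so were the families of the closing observations.

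Replicates were compared and no library was a copy of another (chi-square per degree of freedom 37.6 to 713 over 18 pairs). Control and treated tumors of the same number deviated together from their group means, with correlations of 0.144, 0.114 and 0.134 in 60577 and 0.138, 0.295 and 0.296 in HGS2. Pairs of unlike number ran from -0.0939 to 0.0629 in 60577 and from -0.287 to 0.111 in HGS2. Fits with the number as a block are therefore given beside the reported fit, which has no block. The replicate block fitted each number as a single effect across both models and all time points, unless stated as within each model. Its use rests on the data, since the labels do not say what a number marks. Estimated counts totaled 19456373 to 39153730 per tumor. The script was tested on simulated counts in which 200 genes were given a log2 change of 2 in the interaction. It called 68.5% of them in the right direction, along with 4 unchanged genes, so changes of this size can be missed. Alternatives included DESeq2 1.42.0, limma-voom (limma 3.58.1), other filters, replicate blocks, a length and GC offset and each tumor left out. Promoters are the 250 bases before RefSeq starts. Each printed promoter is that of the called list member of smallest p holding all motifs searched for its list. In every such list this gene ranked 2 by p among called members with a promoter.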

Additional observations from a re-analysis of the deposited data

Results flagged for a closer look

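The responses of the models differed by the test of the interaction itself, with 1120 genes called as described above.

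In groups of 4 tumors, a tumor was picked out where its gap to the nearest other, divided by the range of the group, passed Dixon's 95% limit for 4 values. Of 160 groups tested, 15 passed, and chance gives about 1 in 20 (5%). HGS2 control 2 had the lowest summed level of matrix proteases and inhibitors (5130 CPM) and the highest of pancreatic acinar genes (211000 CPM) and of small noncoding and mitochondrial RNA (350000 CPM). HGS2 control 3 was highest for neutrophil and immature myeloid genes (1460 CPM) and for Pax5 (81.9 CPM). HGS2 control 1 was lowest for Lcn2 (0.671 CPM) and HGS2 control 4 highest for Ptgr1 (10.5 CPM).

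Among 60577 treated tumors, replicate 1 was highest for adipocyte genes (6950 CPM), plasma cell genes (1730 CPM), Adipoq (149 CPM), Cdo1 (65.9 CPM) and S100a8 (1.04 CPM). Replicate 2 was highest for interferon-stimulated genes (2190 CPM) and for pancreatic genes (37.7 CPM), and replicate 4 for Abca6 (20.0 CPM). Without 60577 treated 1 the interaction called 1477 genes, and without HGS2 control 2 it called 865.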

How the results depend on the processing

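No difference among the 1120 called genes changed sign under any alternative. Higher genes numbered 277 with no filter, 880 with DESeq2, 347 with all 34 tumors and 271 with the length and GC offset and the replicate block. The replicate block gave 679 calls (277 higher), 672 of them shared with the 1120, and a block within each model, added after seeing the data, gave 618 (256 higher, 362 lower). For the genes named by rule that the report gives with a difference, the block changed no call other than those stated there. That statement does not cover Cxcl1 or the families picked after their values were seen. Also added after seeing the data, leaving out both doubted controls gave 181 (83 higher, 98 lower) and the small noncoding covariate 267 (121 higher, 146 lower), and library sizes without pancreatic and small noncoding genes 1180. Without a fold limit 975 genes were lower and 7475 were called in 60577. The HGS2 response gave 201 calls with DESeq2, 16 with only the 14 TP2 tumors, 1 with the length and GC offset and 1 with a pancreatic covariate. With each tumor left out in turn, 364 to 1477 genes were called for the interaction (153 to 650 higher, 211 to 827 lower), 2492 to 3774 in 60577 and 0 to 16 in HGS2. The causes were not tested.

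Precision was set by 3 or 4 tumors a group, with a median SE of 0.356 over all genes, and by controls that differ from each other. The part of cell line, strain and tumor age in the interaction cannot be told apart, and the effect of mapping FVB reads to a C57BL/6J genome was not tested.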

Other observations

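Gene families picked after their values were seen add a further description, beside 3.21% of all genes tested called higher and 3.68% called lower. Their calls with a tumor left out, with a block or with the small noncoding covariate are not given. Of 64 replication-dependent histone genes tested, 45 were called lower and none higher, with a median difference of -1.81 and median responses of -2.20 in 60577 and -0.35 in HGS2. These genes package newly copied DNA, and many are near-identical copies among which the counting could split reads, so the values of single genes are uncertain. Of 25 Hox genes, which set position along the body axis, 15 were called higher and none lower, with a median difference of 1.75. Hoxb5 was at 1.39 ± 0.468 CPM (SD, n = 3) in 60577 controls and 12.2 ± 4.40 CPM (SD, n = 4) in treated tumors, against 4.21 ± 0.946 CPM (SD, n = 4) and 4.91 ± 3.10 CPM (SD, n = 3) in HGS2. Its difference was 2.91 ± 0.48, with an edgeR adjusted p of 0.00281, and that of Hoxb4 was 1.81 ± 0.31 (adjusted p 0.00283).

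Of 15 genes of the circadian clock, core activators and repressors as well as output genes, 6 were called higher and none lower, with a median difference of 1.07 and 5 negative differences. Dbp, a clock-driven transcription factor, was at 10.4 ± 1.4 CPM (SD, n = 3) in 60577 controls and 121 ± 54.9 CPM (SD, n = 4) in treated tumors, and at 8.92 ± 2.23 CPM (SD, n = 4) and 8.22 ± 3.38 CPM (SD, n = 3) in HGS2. Its difference was 3.66 ± 0.81 (edgeR adjusted p 0.00906). The clock repressor Nr1d1 differed by 2.11 ± 0.56 (adjusted p 0.0216) and Per3 by 2.10 ± 0.60 (adjusted p 0.0289). The hour at which tumors were collected was not given in the sources used here, so its part was not tested. Of 9 Gimap genes, GTPases of lymphocytes, 1 was called higher (Gimap8), beside 3.21% of all genes tested. All 9 differences were positive, with a median of 3.16. Called higher genes had a median transcript length of 3698 bases and called lower genes 2626 bases, against 3222 bases over all genes tested, while the median GC content was 49.3% in both groups and 49.2% over all. With an offset for length and GC content 1270 genes were called, 469 higher and 801 lower.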
